A study of Mus musculus with 12 samples.

Results

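Steroid hormones act on the uterus through nuclear receptors, and 9 genes of that machinery are described here across the estrous cycle of the mouse. They are the estrogen receptor alpha gene Esr1, the progesterone receptor gene Pgr, the glucocorticoid receptor gene Nr3c1, the coactivator genes Ncoa1, Ncoa2, Ncoa3 and Greb1, and the immunophilin genes Fkbp4 and Fkbp5. The genes were picked by symbol for their role in steroid signalling, with earlier results of these data known. All 9 were found among the 35896 genes of the count table. Each was above the filter on low counts that left 12052 genes for testing.

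Steroid receptors wait for hormone in a complex with the chaperone HSP90, in which the co-chaperones p23 and HOP take part in maturation. The immunophilins FKBP52, encoded by Fkbp4, and FKBP51, encoded by Fkbp5, bind HSP90 in that complex. A hormone-bound receptor binds DNA at its response elements and recruits coactivators of the p160 family, encoded by Ncoa1, Ncoa2 and Ncoa3, which bring histone acetyltransferases and methyltransferases to the gene. In the uterus, estrogen drives growth of the epithelium and progesterone prepares the tissue for an embryo, and both Esr1 and Pgr are needed for fertility.

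The data were 12 samples of whole uterus from wild-type female Swiss Webster mice, an outbred stock, aged 8 to 12 weeks. The labels placed 3 samples in each of 4 stages, proestrus, estrus, metestrus and diestrus, with no treatment or transgene in any of them. Samples are named by stage and by the number in their title, which was 1, 2 and 3 in proestrus, 3, 4 and 5 in estrus and diestrus, and 5, 6 and 7 in metestrus. The labels did not say how the stage of a mouse was found or whether a sample was 1 animal or a pool, so that p-values measure the spread between these samples.

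Each library was made by 3' TagSeq, in which a read comes from the 3' end of a polyadenylated transcript, and held between 1652841 estimated counts (metestrus 6) and 2200563 (estrus 5). A level is given as CPM, a count scaled by library size, and 3 counts, which a gene with 0 counts may still reach, stood for 1.37 to 1.89 CPM. Correlations of log2 CPM between samples of a stage ran from 0.939 to 0.957 in proestrus, estrus and diestrus and from 0.897 to 0.91 in metestrus, whose samples differed most among themselves. Markers of epithelium, stroma, smooth muscle and endothelium were detected in every library, as fits whole uterus. Of the markers for ovary and oviduct, tissues that lie next to the uterus, 3 of 9 and 2 of 4 had a mean level above the floor, with summed levels of at most 47.3 and 76.1 CPM, and the egg coat gene Zp3 was at 0 in all libraries.

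A difference was called where edgeR's quasi-likelihood test gave an adjusted p (Benjamini-Hochberg, over the 12052 genes) under 0.05. In the F test over the 4 stages, 4 of the 9 genes were called, Pgr, Fkbp4, Fkbp5 and Ncoa3, against 23.2% of all tested genes. The 4 did not share a pattern. Pgr and Fkbp4 were lowest in estrus, Ncoa3 was highest in estrus and Fkbp5 was highest in diestrus. Greb1 was highest in proestrus and missed the threshold in that test (adjusted p = 0.0527), while Esr1, Nr3c1, Ncoa1 and Ncoa2 had adjusted p-values of 0.238 to 0.861.

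**Figure D1:**
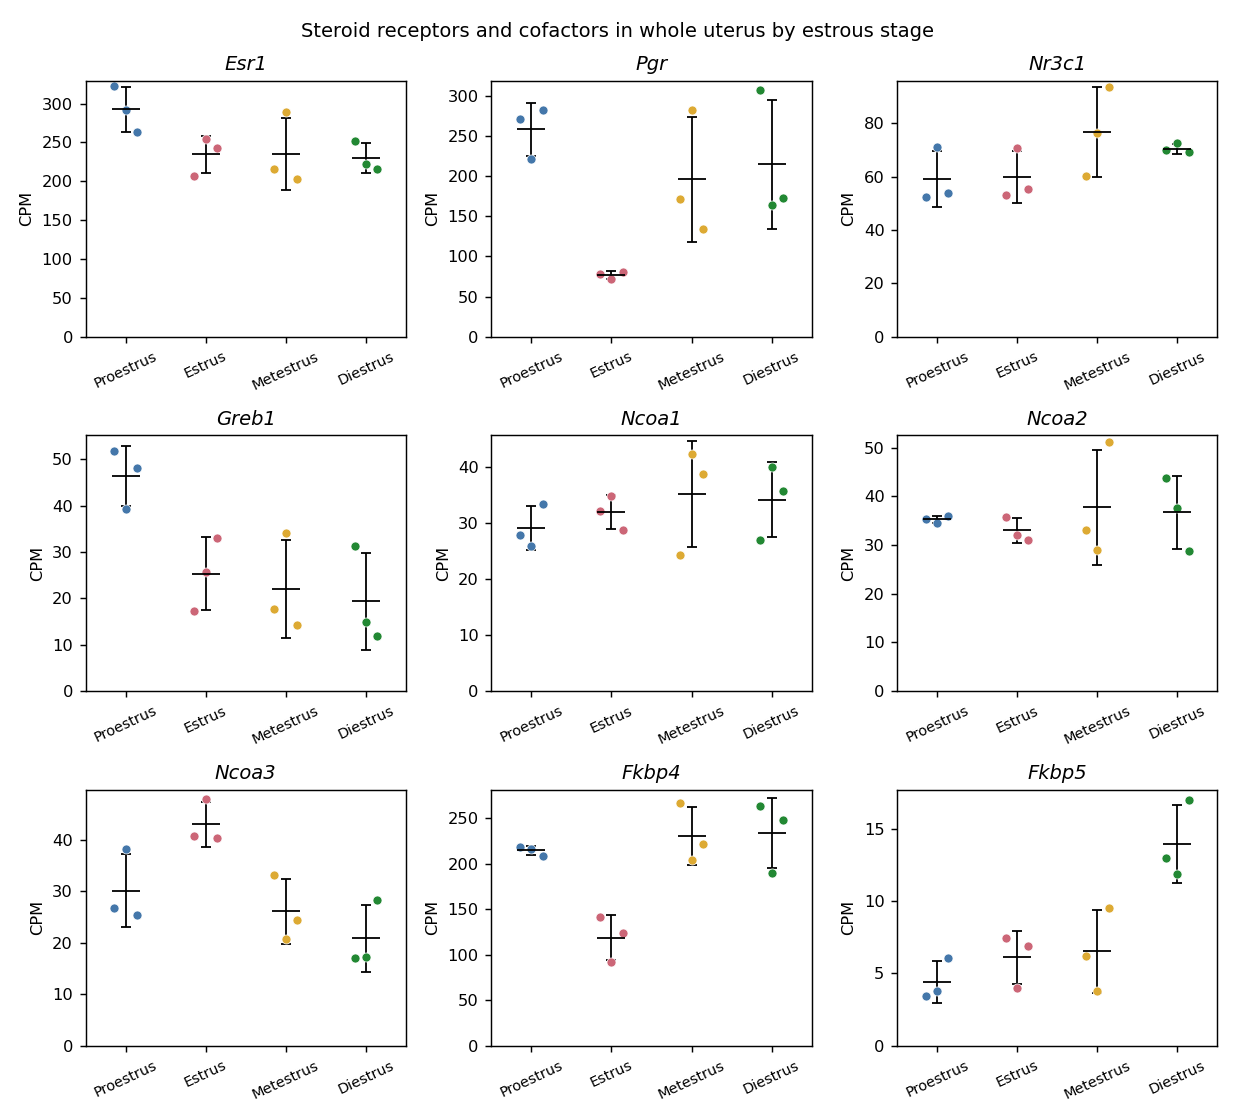
Level of each of the 9 genes in CPM (vertical axis, from 0, its scale set per gene) by stage (horizontal axis), where a point is 1 sample and the bars give the mean and SD of 3 samples. Pgr and Fkbp4 had their 3 lowest samples in estrus, Fkbp5 had its 3 highest in diestrus and Greb1 its 3 highest in proestrus.

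The starts of 3 of these genes are printed first, because Pgr and Fkbp4 were lowest in estrus and Greb1 was not. The windows are the 250 bases upstream of the RefSeq start (GRCm38.p6), written 5′ to 3′ on the strand of the gene, and capitals mark GGTCA, or its reverse complement TGACC, which is 1 arm of the palindromic estrogen response element.
Greb1, chr12:16757240-16757489, minus strand: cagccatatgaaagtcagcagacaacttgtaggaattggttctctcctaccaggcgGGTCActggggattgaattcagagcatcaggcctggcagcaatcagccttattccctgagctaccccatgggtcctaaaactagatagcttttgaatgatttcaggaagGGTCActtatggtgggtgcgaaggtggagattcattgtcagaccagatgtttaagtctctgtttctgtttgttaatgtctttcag
Pgr, chr9:8899583-8899832, plus strand: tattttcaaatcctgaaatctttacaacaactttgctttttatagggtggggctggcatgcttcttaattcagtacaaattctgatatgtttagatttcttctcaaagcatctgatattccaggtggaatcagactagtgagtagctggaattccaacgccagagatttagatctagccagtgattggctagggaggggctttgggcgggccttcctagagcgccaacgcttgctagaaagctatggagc
Fkbp4, chr6:128438657-128438906, minus strand: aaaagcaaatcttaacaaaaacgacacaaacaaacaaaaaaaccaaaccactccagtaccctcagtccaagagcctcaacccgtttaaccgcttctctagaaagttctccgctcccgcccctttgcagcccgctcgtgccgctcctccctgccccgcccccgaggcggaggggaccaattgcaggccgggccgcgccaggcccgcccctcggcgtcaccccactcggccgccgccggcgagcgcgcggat
The Greb1 window lies before the start of the transcript Greb1-201, which was assigned 98.6% of the counts of that gene. It has 2 such arms, whose first bases are 194 and 85 bases upstream of the start. The coding transcript Greb1-212 has the same 3' end and starts further upstream, so that 3' reads cannot tell which start was used. The other Greb1 window, chr12:16800887-16801136, is not printed and has 1 arm, 88 bases upstream of its start. The Pgr and Fkbp4 windows hold none. A RefSeq window was found for 6 of the 9 genes, 8 windows in all, and the arm occurred in 2 of them, both of Greb1, against 35.2% of 32851 windows of that length in the genome. The whole palindrome, GGTCA and TGACC with 3 bases between them, was in 0 of the 8 windows (0.0639% of all windows), and the element that progesterone and glucocorticoid receptors both bind, GNACA and TGTNC with 3 bases between them, was also in 0 (0.387% of all windows). Both strands were searched for each motif, and every match of the palindrome also counts as a match of its arm. These are matches of letters within a short window and do not show binding.

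Esr1 encodes the receptor through which most uterine responses to estrogen run, and it lies on chr10:4611593-5005614 (plus strand, GRCm38, ENSMUSG00000019768). Its level was 322, 292 and 263 CPM in proestrus 1 to 3, and 207, 254 and 242 CPM in estrus 3 to 5. It was 215, 288 and 203 CPM in metestrus 5 to 7 and 252, 222 and 216 CPM in diestrus 3 to 5. All 3 proestrus samples were above the estrus and diestrus samples, and the other 3 stages overlapped. The largest difference was proestrus against diestrus, a log2 difference of 0.35 (95% interval 0.01 to 0.68, adjusted p = 0.205), which was not called. Across all 6 pairs of stages no 95% interval for Esr1 reached past a log2 difference of 0.68 in either direction.

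Pgr encodes the nuclear progesterone receptor and is a textbook estrogen-regulated gene. It lies on chr9:8899833-8968611 (plus strand, ENSMUSG00000031870), just downstream of the window printed above. Its level was 271, 221 and 282 CPM in proestrus 1 to 3 and 77.9, 71.5 and 81.1 CPM in estrus 3 to 5. It was 171, 283 and 134 CPM in metestrus 5 to 7 and 307, 164 and 173 CPM in diestrus 3 to 5. The estrus samples lay close together and below all 9 others, while the metestrus and diestrus samples spread over a wide range that took in the proestrus levels.

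Pgr fell from proestrus to estrus, from 258 ± 32.5 to 76.8 ± 4.88 CPM (mean ± SD, n = 3 each), a log2 difference of -1.75 ± 0.28 (SE, adjusted p = 0.00154), or 3.35-fold lower. Of all tested genes, 17.1% were called in that comparison (7.46% as lower in estrus), and of the 9 genes Pgr and Fkbp4 were, both lower. The level rose again to 196 ± 77.6 CPM in metestrus (log2 difference 1.35 ± 0.28, adjusted p = 0.0118), in a comparison that called 7.56% of tested genes (2.83% as higher in metestrus) and again Pgr and Fkbp4, both higher. Diestrus, at 215 ± 79.9 CPM, exceeded estrus by 1.48 ± 0.28 on the log2 scale (adjusted p = 0.00212), in a comparison that called 22.8% of tested genes (9.72% as higher in diestrus and 13% as lower) and 4 of the 9. Proestrus, metestrus and diestrus could not be told apart for Pgr, with 95% intervals of -0.97 to 0.17 for metestrus against proestrus and -0.30 to 0.83 for proestrus against diestrus. The calls of Pgr in the 3 comparisons with estrus held without each single library.

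The number of Pgr counts per Esr1 count sets both receptors side by side within each library. The ratio was 0.331 ± 0.0471 in estrus, with samples from 0.282 to 0.376. It was 0.89 ± 0.162 in proestrus, 0.811 ± 0.161 in metestrus and 0.92 ± 0.262 in diestrus, and the lowest of those 9 samples stood at 0.659. The estrus samples thus overlapped with no other stage. A ratio within a library does not depend on how the library was scaled.

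Nr3c1 encodes the glucocorticoid receptor and lies on chr18:39410545-39519421 (minus strand, ENSMUSG00000024431). Its samples ran from 52.5 to 71.2 CPM in proestrus, 53.2 to 70.9 in estrus, 60.2 to 93.6 in metestrus and 69.0 to 72.7 in diestrus. All 4 stages overlapped, and metestrus held the highest sample. The largest log2 difference was 0.37 (metestrus against proestrus, 95% interval -0.02 to 0.76, adjusted p = 0.262). Nr3c1 was not called in any of the 6 comparisons.

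Greb1, first described as a gene that estrogen induces in breast cancer cells, encodes a chromatin-bound cofactor of estrogen receptor alpha. It lies on chr12:16670615-16800886 (minus strand, ENSMUSG00000036523). Its level was 51.9, 39.3 and 48.2 CPM in proestrus 1 to 3 and 17.3, 25.7 and 33.0 CPM in estrus 3 to 5. It was 17.6, 34.1 and 14.3 CPM in metestrus 5 to 7 and 31.4, 14.8 and 11.9 CPM in diestrus 3 to 5. Each proestrus sample was above each of the 9 other samples, which overlapped one another.

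Proestrus exceeded diestrus by a log2 difference of 1.25 ± 0.36 for Greb1 (46.5 ± 6.45 against 19.4 ± 10.5 CPM, adjusted p = 0.0464), or 2.38-fold. This comparison called 8.53% of tested genes, 4.62% as higher in proestrus and 3.91% as lower, and of the 9 genes it called Greb1 as higher and Fkbp5 as lower. The Greb1 call was close to the threshold and was lost without any of proestrus 1 (adjusted p = 0.128), proestrus 2 (0.0827), proestrus 3 (0.121), estrus 4 (0.0695), estrus 5 (0.0542), diestrus 4 (0.173) or diestrus 5 (0.166). The log2 difference of estrus from proestrus was -0.86 (adjusted p = 0.111) and that of metestrus -1.09 (adjusted p = 0.101), and neither was called. Estrus against proestrus was called for Greb1 in 3 of 23 alternatives. These were only the 6 samples compared (adjusted p = 0.0125), no filter on low counts (0.0343) and no metestrus samples (0.049). Metestrus against proestrus called 4.31% of tested genes and 0 of the 9 in edgeR, where 1 of them, Greb1, had an unadjusted p under 0.05, and DESeq2 and limma-voom also called 0. Without metestrus 6, the highest metestrus sample, that comparison called Greb1 (adjusted p = 0.0239).

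Greb1 was also set against Esr1. Greb1 counts per Esr1 count were 0.16 ± 0.024 in proestrus, 0.107 ± 0.0267 in estrus, 0.0902 ± 0.0248 in metestrus and 0.0823 ± 0.0375 in diestrus. The estrus mean thus lay between that of proestrus and those of the later stages. The estrus samples (0.0836 to 0.136) overlapped with those of metestrus and diestrus, and the highest of them was level with the lowest of proestrus (0.135). Summed epithelial markers also differed by stage, at 1684 to 2265 CPM in proestrus, 1421 to 1827 in estrus, 560 to 1160 in metestrus and 491 to 720 in diestrus. Their part in the Greb1 levels was not tested. In whole tissue, fewer cells of a type and less RNA per cell cannot be told apart.

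**Figure D2:**
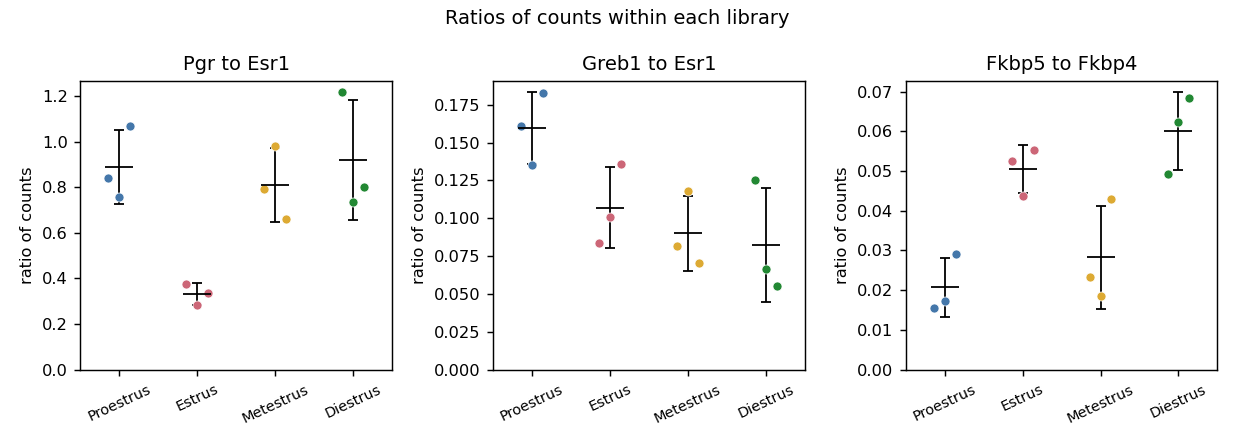
Ratio of the counts of one gene to those of another within each library (vertical axis, from 0) by stage (horizontal axis), where a point is 1 sample and the bars give the mean and SD of 3 samples. Pgr to Esr1 was lowest in the 3 estrus samples (0.282 to 0.376), Greb1 to Esr1 had its highest mean in proestrus (0.16), and Fkbp5 to Fkbp4 had its highest means in estrus (0.0506) and diestrus (0.06).

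The p160 coactivators are the classical partners of the hormone-bound receptors. Ncoa1, which encodes SRC-1, lies on chr12:4247362-4477182 (minus strand, ENSMUSG00000020647), and its samples lay between 24.4 and 42.3 CPM, both extremes in metestrus. Ncoa2, which encodes SRC-2, a coactivator that uterine progesterone responses need, lies on chr1:13139105-13374083 (minus strand, ENSMUSG00000005886). Its samples lay between 28.9 CPM (diestrus 5) and 51.3 CPM (metestrus 7). For both genes the ranges of all 4 stages overlapped. The 95% intervals of the 6 log2 differences stayed within 0.74 of zero for Ncoa1 and within 0.66 for Ncoa2, and the lowest adjusted p-values were 0.548 and 0.615.

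Ncoa3, which encodes SRC-3, was the p160 gene with a call. It lies on chr2:165992636-166073242 (plus strand, ENSMUSG00000027678), and its level was 26.8, 38.3 and 25.4 CPM in proestrus 1 to 3 and 40.8, 48.0 and 40.3 CPM in estrus 3 to 5. It was 33.2, 20.8 and 24.4 CPM in metestrus 5 to 7 and 16.9, 17.3 and 28.3 CPM in diestrus 3 to 5. The 3 estrus samples were the highest of the 12, and the diestrus samples included the lowest.

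Diestrus was below estrus by a log2 difference of -1.05 ± 0.24 for Ncoa3 (20.9 ± 6.45 against 43.1 ± 4.33 CPM, adjusted p = 0.00743), or 2.07-fold lower, and this call held without each single library. Estrus against proestrus (log2 difference 0.51, adjusted p = 0.155) and metestrus against estrus (-0.71, adjusted p = 0.0907) were not called, although the groups did not overlap. The second was called without metestrus 5 (adjusted p = 0.036). The F test over the stages (adjusted p = 0.0288) was lost without estrus 3 (0.0655), estrus 4 (0.126), estrus 5 (0.0723), diestrus 3 (0.0765) or diestrus 4 (0.0832). The summed leukocyte markers were also highest in estrus, at 262 to 348 CPM against 95.4 to 246 CPM in the other stages, and their part was not tested. Of these markers, Ptprc, Cd68, Adgre1, Csf1r and Cd3e had their highest means in estrus, S100a8 and S100a9 in diestrus and Ncr1 in metestrus. The 3' end of Ncoa3 overlaps that of Sulf2, a heparan sulfate sulfatase gene on the opposite strand, over 154 bases, and since the use of strand in counting was not given in the sources used here, reads from the overlap could belong to either. Sulf2 stood at 121 ± 11.5, 105 ± 6.07, 111 ± 48.4 and 130 ± 41.9 CPM in proestrus, estrus, metestrus and diestrus. These levels come from the same assignment of reads, and the part of the overlap in the Ncoa3 levels was not tested.

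Fkbp4 encodes FKBP52, an HSP90-bound immunophilin that raises progesterone receptor activity and that the uterus needs for implantation. It lies on chr6:128429735-128438677 (minus strand, ENSMUSG00000030357). Its level was 219, 217 and 209 CPM in proestrus 1 to 3 and 141, 91.5 and 124 CPM in estrus 3 to 5. It was 267, 204 and 222 CPM in metestrus 5 to 7 and 263, 190 and 248 CPM in diestrus 3 to 5. Every estrus sample was below every other sample, as for Pgr, and the other 3 stages overlapped.

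Fkbp4 averaged 215 ± 5.21 CPM in proestrus and fell to 119 ± 25.2 CPM at estrus, a log2 difference of -0.85 ± 0.17 (adjusted p = 0.00561), or 1.81-fold lower. It rose to 231 ± 32.3 CPM in metestrus (log2 difference 0.96 ± 0.18, adjusted p = 0.0061), and diestrus, at 234 ± 38.4 CPM, exceeded estrus by 0.98 ± 0.17 (adjusted p = 0.00167). None of these calls was lost without any single library. A retained-intron transcript, Fkbp4-202, was assigned 57.5% of the counts of the gene and the coding transcript Fkbp4-201 42.5%. With coding transcripts alone, the F test (adjusted p = 0.0716) and metestrus against estrus (0.102) were no longer called, although the log2 difference of the latter was 1.03, while the other 2 comparisons with estrus were called. The coding transcript held 49.1% ± 7.09 of the counts in proestrus, 38.4% ± 4.6 in estrus, 39.8% ± 13.0 in metestrus and 39.7% ± 15.3 in diestrus.

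Fkbp5 encodes FKBP51, which lowers the hormone affinity of the glucocorticoid receptor and is itself a widely used readout of glucocorticoid and progestin action. It lies on chr17:28399094-28517527 (minus strand, ENSMUSG00000024222). It was sparsely covered, with 173 counts over the 12 samples. Its level was 3.42, 3.77 and 6.09 CPM in proestrus 1 to 3 and 7.42, 4.0 and 6.87 CPM in estrus 3 to 5. It was 6.22, 3.79 and 9.54 CPM in metestrus 5 to 7 and 13.0, 11.9 and 17.0 CPM in diestrus 3 to 5. The diestrus samples, with 24 to 30 counts each, were above all others, which had 6 to 16 counts each.

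Proestrus was below diestrus by a log2 difference of -1.63 ± 0.39 for Fkbp5 (4.43 ± 1.45 against 13.9 ± 2.69 CPM, adjusted p = 0.0192), or 3.08-fold lower. Diestrus exceeded estrus by 1.18 ± 0.38 (adjusted p = 0.0369). Diestrus against metestrus, at 1.08 ± 0.38, was not called (adjusted p = 0.272), and that comparison called 0.224% of tested genes and 0 of the 9 in edgeR, in DESeq2 and in limma-voom. Fkbp5 alone of the 9 had an unadjusted p under 0.05 there in edgeR.

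At this depth single libraries decided the calls of Fkbp5. Proestrus against diestrus was lost without proestrus 1 (adjusted p = 0.0756), proestrus 2 (0.086) or diestrus 5 (0.0795), and diestrus against estrus without estrus 3 (0.0582), estrus 4 (0.118), estrus 5 (0.0755), diestrus 3 (0.0751), diestrus 4 (0.0529) or diestrus 5 (0.129). The F test (adjusted p = 0.0252) was lost without proestrus 1 (0.0587), proestrus 2 (0.0595), diestrus 3 (0.0675) or diestrus 5 (0.117). The direction was the same in each. The summed level of 5 skeletal muscle markers was 128 to 199 CPM in diestrus and 34.6 to 122 CPM in the other stages, and its part in the Fkbp5 levels was not tested. Of these markers, Acta1 (122 ± 22.3 CPM) and Tnnt3 (31.3 ± 12.7 CPM) were highest in diestrus, while Ckm was highest in estrus (12.2 ± 5.16 against 5.05 ± 2.21 CPM in diestrus). Mylpf averaged at most 1.48 CPM in any stage, and the skeletal myosin gene Myh4 was at 0 in all libraries.

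The immunophilins compete for the same site on HSP90, and their counts were set against each other. Fkbp5 counts per Fkbp4 count were 0.0207 ± 0.00733 in proestrus, 0.0506 ± 0.00605 in estrus, 0.0283 ± 0.0129 in metestrus and 0.06 ± 0.00985 in diestrus. The proestrus samples (0.0156 to 0.0291) lay below those of estrus (0.0438 to 0.0554), where Fkbp4 was low, and of diestrus (0.0492 to 0.0685), where Fkbp5 was high.

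**Figure D3:**
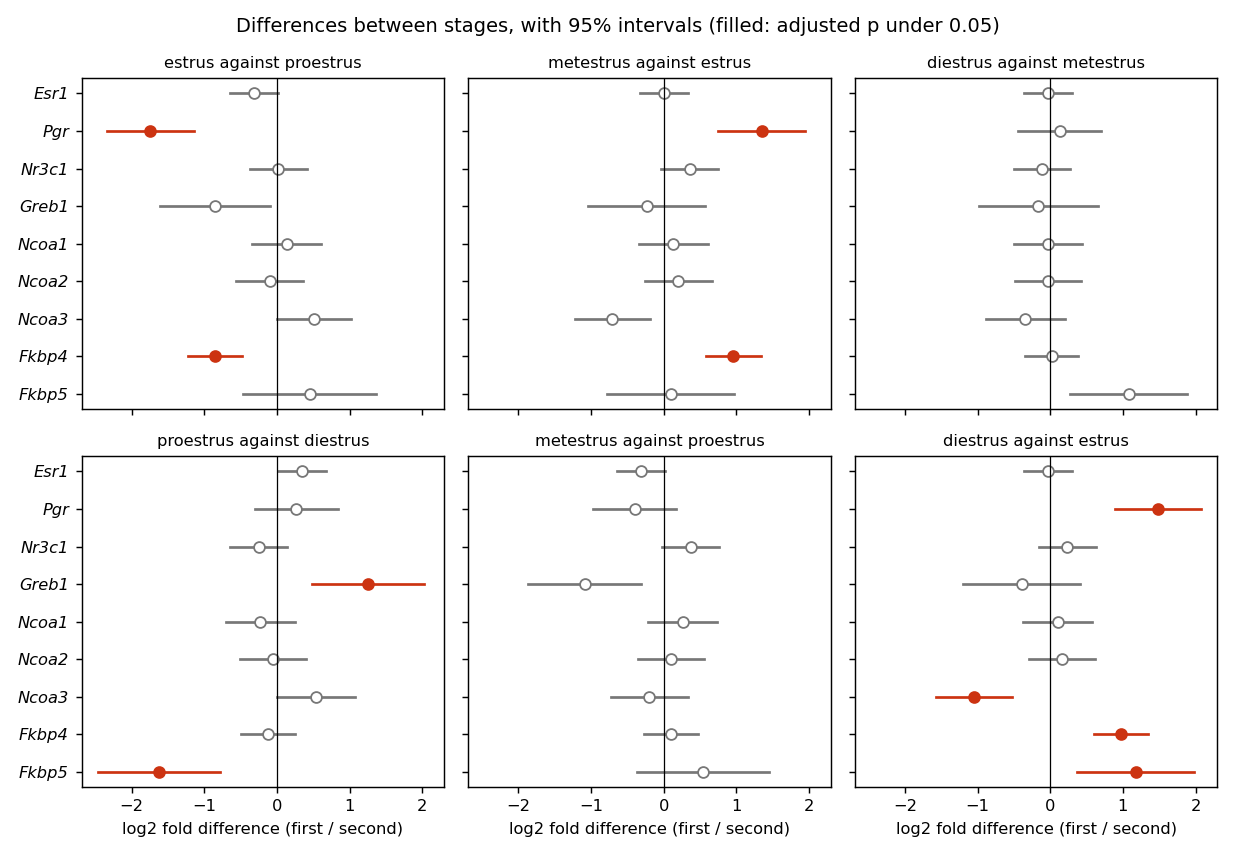
Log2 fold difference (horizontal axis) of each of the 9 genes (vertical axis) in the 6 comparisons of stages, 1 per panel, where lines are 95% intervals and filled red points passed the threshold. The calls numbered 2, 2, 0, 2, 0 and 4 in the order of the panels, and diestrus against estrus held the 4.

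In diestrus against estrus, 4 of the 9 genes were called, Pgr, Fkbp4 and Fkbp5 as higher in diestrus and Ncoa3 as lower, beside 22.8% of all tested genes (9.72% higher and 13% lower), the largest share of the 6 comparisons. The median log2 difference of the 9 genes there was 0.16, beside 0.00 over all tested genes. In estrus against proestrus the medians were -0.10 and 0.02, and in the other 4 comparisons the median of the 9 genes lay between -0.06 and 0.13. The estimated mean log2 level of Pgr spanned 1.73 between its highest and lowest stage, that of Fkbp5 1.46, Greb1 1.33, Ncoa3 1.04 and Fkbp4 0.98, against a median span of 0.60 over all tested genes. Esr1 (0.34), Nr3c1 (0.36), Ncoa1 (0.23) and Ncoa2 (0.15) spanned less than that median.

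The partners of the immunophilins in the receptor complex were read from a list of 17 chaperone genes, of which 16 were tested. In estrus against proestrus 3 of the 16 were called, Hsp90aa1, Stip1 and Ptges3, all lower in estrus, a share near the 17.1% of all tested genes called there. The median log2 difference of the list was -0.18, beside 0.02 over all tested genes. Hsp90aa1, the stress-inducible HSP90 gene, stood at 725 ± 103 CPM in proestrus and 442 ± 61.4 CPM in estrus (log2 difference -0.71, adjusted p = 0.00771). Ptges3, which encodes p23, stood at 327 ± 23.2 and 211 ± 10.6 CPM (-0.63, adjusted p = 0.00518), and Stip1, which encodes HOP, at 51.1 ± 4.68 and 29.8 ± 1.76 CPM (-0.78, adjusted p = 0.00371). For each of these genes, as for Fkbp4, the 3 estrus samples were the lowest of the 12. All these calls held without each single library.

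Diestrus against estrus called 7 of the 16 chaperone genes, beside 22.8% of all tested genes. It called 4 without estrus 3 or without diestrus 5, beside 16.8% and 16.4% of all tested genes in those fits. Higher in diestrus were Hsp90aa1 (766 ± 94.9 CPM, log2 difference 0.79, adjusted p = 0.00283), Ptges3 (330 ± 19.8 CPM, 0.64, adjusted p = 0.00301) and Stip1 (60.0 ± 7.04 CPM, 1.01, adjusted p = 3.84e-04), together with Ppid, Ppp5c and Ahsa1. Lower was Ttc9, a gene for a protein with the tetratricopeptide repeats that many HSP90 partners carry, at 5.33 ± 4.3 CPM against 27.6 ± 6.17 CPM in estrus (-2.36, adjusted p = 0.00492). The remaining 9 were not called. Summed smooth muscle markers stood at 8730 to 11250 CPM in estrus and 5705 to 9159 CPM in the other stages, and their part in the lower values of estrus was not tested. Of these markers, Myh11, Actg2, Des, Tagln and Lmod1 had their highest means in estrus, Acta2 and Cnn1 in proestrus and Synpo2 in diestrus.

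**Figure D4:**
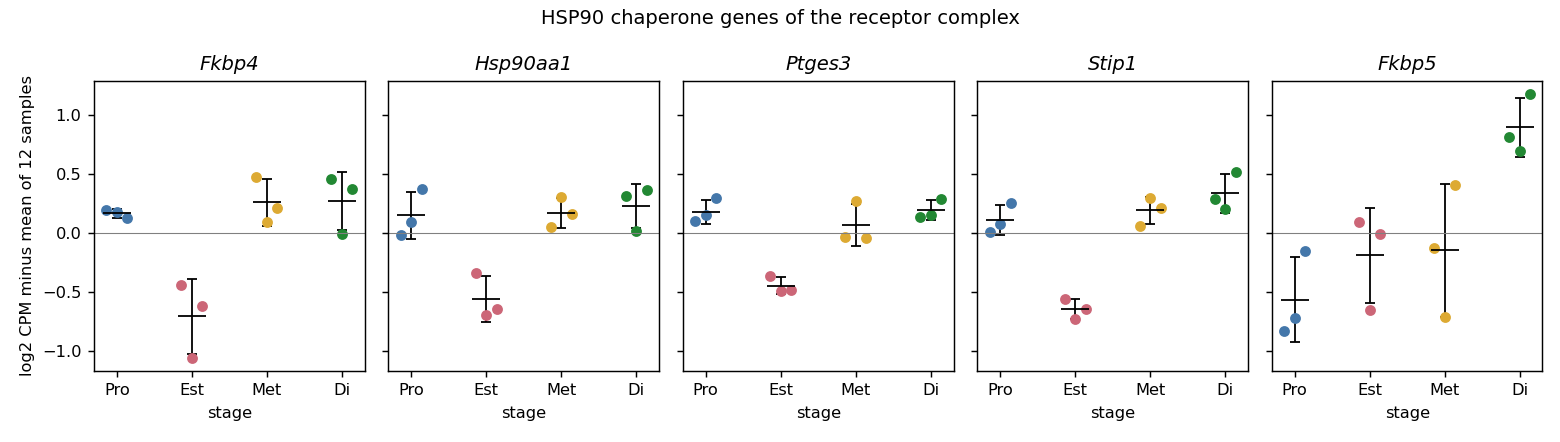
Log2 CPM minus the mean of the 12 samples (vertical axis) by stage (horizontal axis) for Fkbp4, 3 HSP90 chaperone genes and Fkbp5, where a point is 1 sample and the bars give the mean and SD of 3 samples. The estrus samples of Fkbp4, Hsp90aa1, Ptges3 and Stip1 are the lowest of the 12, and Fkbp5 instead has its 3 highest samples in diestrus.

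Among 27 other coregulator genes, 26 were tested and 6 called in the F test, a share like the 23.2% of all tested genes, and 3 without proestrus 1 or estrus 4. Prmt1, an arginine methyltransferase that p160 coactivators recruit, had the smallest p of the list. It stood at 36.4 ± 4.13 CPM in proestrus, 13.3 ± 3.67 in estrus, 35.2 ± 6.84 in metestrus and 32.3 ± 1.94 in diestrus (F test adjusted p = 0.00165), and its estrus samples, at 9.16 to 16.02 CPM, were below the 28.0 CPM of the lowest other sample. Gata2, a transcription factor that acts with the progesterone receptor, stood at 83.6 ± 0.758, 77.3 ± 7.78, 78.0 ± 17.7 and 150.5 ± 22.9 CPM in the same order (adjusted p = 0.00183), highest in diestrus. Nrip1, a corepressor of estrogen receptor alpha, was highest in proestrus at 196 ± 18.7 CPM and lowest in diestrus at 104 ± 19.9 CPM (adjusted p = 0.00607). Crebbp, Phb2 and Foxa2 were the others called.

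Of 11 other receptor genes for steroids or related ligands, 7 were tested and 1 was called in the F test, beside 23.2% of all tested genes. This was Pgrmc1, a membrane-associated progesterone-binding protein gene, at 119 ± 21.7 CPM in proestrus, 188 ± 7.94 in estrus, 163 ± 7.25 in metestrus and 138 ± 17.0 in diestrus (adjusted p = 0.0181). Its rise from proestrus to estrus (log2 difference 0.66, adjusted p = 0.00794) was opposite in direction to that of Pgr and held without each single library. The F test call was lost without proestrus 2, proestrus 3, estrus 4 or estrus 5. Esr2, the estrogen receptor beta gene, had 28 counts in all 12 libraries, the mineralocorticoid receptor gene Nr3c2 had 55 and the membrane estrogen receptor gene Gper1 had 33, and they were not tested.

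Hormone-responsive genes give the setting in which the receptors were read. These lists hold textbook target genes, chosen with results of these data known. Of 17 tested estrogen-responsive genes, 13 were called in the F test, beside 23.2% of all tested genes. In diestrus against estrus 9 were lower and 2 higher, beside 13% and 9.72% of all tested genes, and the median log2 difference of the list was -2.00. Lcn2, which encodes the secreted lipocalin 2, stood at 1024 ± 264 CPM in proestrus and 4218 ± 979 in estrus but 29.0 ± 16.2 in diestrus. Padi1, a peptidylarginine deiminase gene, stood at 136 ± 29.7, 157 ± 47.7 and 3.76 ± 0.834 CPM in the same stages. Muc1, a mucin of the epithelial surface, stood at 73.4 ± 26.1, 101 ± 13.6 and 14.2 ± 6.17 CPM. The epithelial markers given above were also high in proestrus and estrus, and their part was not tested.

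Of 17 tested progesterone-responsive genes, 14 were called in the F test, beside 23.2% of all tested genes. In proestrus against diestrus 12 were lower and 0 higher in proestrus, beside 3.91% and 4.62% of all tested genes, and the median log2 difference was -1.24. Hoxa10, a homeobox gene of uterine stroma, stood at 150 ± 7.1 CPM in proestrus, 98.5 ± 6.03 in estrus, 288 ± 93.6 in metestrus and 353 ± 23.3 in diestrus (F test adjusted p = 7.84e-05). Gli1, a Hedgehog pathway target, stood at 6.19 ± 2.63, 2.67 ± 0.83, 18.5 ± 3.51 and 38.3 ± 3.01 CPM (adjusted p = 1.43e-05), and Sox17, an endoderm and epithelial transcription factor, at 47.5 ± 1.98, 34.4 ± 3.29, 51.3 ± 7.3 and 103.9 ± 9.77 CPM (adjusted p = 4.5e-05). Ihh, the Hedgehog ligand that progesterone induces in uterine epithelium, was under the floor on average in proestrus and estrus and stood at 6.48 ± 3.33 CPM in metestrus and 17.5 ± 4.08 CPM in diestrus (adjusted p = 1.01e-04). Pgr itself was not called between proestrus and diestrus. Summed gland markers stood at 0.539 to 4.56 CPM in proestrus and 28.3 to 111 CPM in diestrus, and at 861 CPM in metestrus 7, and their part was not tested. Of these markers, Foxa2, Cxcl15 and Spink1 had higher means in diestrus than in proestrus, where Spink1 ran from 0.997 to 61.3 CPM among the diestrus samples. Prss28 was at 0 in both stages, and Prss29 averaged 0.38 CPM in proestrus and 0.33 CPM in diestrus.

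Of 15 tested glucocorticoid-responsive genes, 9 were called in the F test, beside 23.2% of all tested genes. In estrus against proestrus 7 were higher in estrus and 0 lower, beside 9.67% and 7.46% of all tested genes, and the median log2 difference was 0.61. Tgm2, which encodes transglutaminase 2, stood at 233 ± 7.06 CPM in proestrus, 478 ± 24.2 in estrus, 232 ± 17.4 in metestrus and 244 ± 18.6 in diestrus. The metallothionein gene Mt2 stood at 17.5 ± 5.11, 81.3 ± 23.8, 99.8 ± 34.0 and 199 ± 81.4 CPM, and Nfkbia, an inhibitor of NF-kappaB, at 197 ± 13.8, 300 ± 17.9, 143 ± 25.2 and 122 ± 8.67 CPM. The adjusted p-values of the F test were 7.41e-05, 1.67e-04 and 1.33e-04. The named genes of the list had their maxima in different stages, and Fkbp5, which is known for the same response, had its maximum in diestrus with Mt2. The summed leukocyte markers also had their highest mean in estrus, as Tgm2 and Nfkbia did. Their lowest mean was in proestrus (109 CPM, against 168 CPM in diestrus), where Nfkbia stood above its metestrus and diestrus means. The part of these markers was not tested.

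Genes that make or break steroids set how much hormone reaches a receptor. Of 15 such genes 9 were tested and 5 called in the F test, beside 23.2% of all tested genes. Hsd11b2, whose enzyme inactivates corticosterone, stood at 240 ± 33.5 CPM in proestrus and 31.3 ± 21.5 in estrus (log2 difference -2.95, adjusted p = 0.00501), and at 181 ± 159 in metestrus and 257 ± 42.4 in diestrus. Its estrus samples, at 12.0 to 54.4 CPM, overlapped with metestrus 5 (46.2 CPM) and were below the other 8. The F test (adjusted p = 0.00995) was lost without estrus 5 (0.0558). Hsd17b11, which encodes a hydroxysteroid dehydrogenase, stood at 122 ± 6.26, 171 ± 14.1, 110 ± 21.9 and 55.5 ± 13.5 CPM (adjusted p = 3.73e-04). Hsd17b2, whose enzyme converts estradiol to the weaker estrone, stood at 19.0 ± 6.27 CPM in estrus and averaged 1.95, 0.89 and 0 CPM in proestrus, metestrus and diestrus (adjusted p = 0.00123). Akr1c14, which encodes a 3-alpha-hydroxysteroid dehydrogenase, stood at 80.8 ± 3.29, 36.3 ± 4.52, 39.2 ± 8.6 and 18.9 ± 14.4 CPM (adjusted p = 0.00413).

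**Figure D5:**
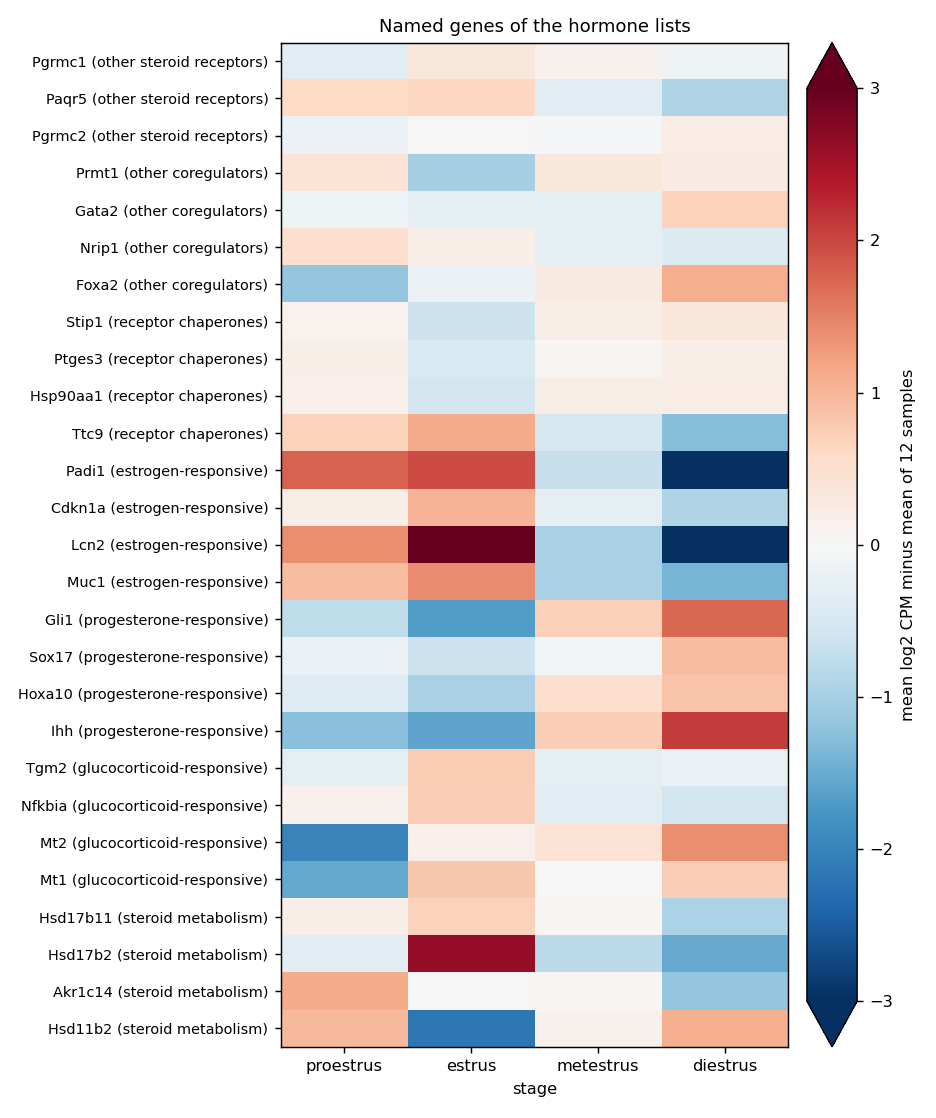
Mean log2 CPM per stage minus the mean of the 12 samples (colour, red higher and blue lower) for up to 4 genes of each list with the smallest F test p (rows, list in brackets) in the 4 stages (columns). Hsp90aa1, Ptges3, Stip1 and Prmt1 are lowest in estrus, the estrogen-responsive genes are lowest in diestrus and the progesterone-responsive genes are highest in diestrus.

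For the 4 genes called in the F test, the genes with the most similar course were found by the root mean square difference between centred log2 CPM values over the 12 samples. Closest to Pgr, which itself varied by 0.729 about its mean, were Gpr27 (0.24), an orphan receptor gene, Ccnd1 (0.257), which encodes cyclin D1, and Chsy1 (0.273), which encodes a chondroitin synthase. Ccnd1 is also on the estrogen-responsive list and stood at 137 CPM in proestrus, 50.8 in estrus, 88.1 in metestrus and 115 in diestrus. Closest to Fkbp4 (0.447) were 9130401M01Rik (0.145), Exosc1 (0.183), which encodes a part of the RNA exosome, and Sec22c (0.185), which encodes a vesicle transport protein. Among the closest to Ncoa3 (0.455) were Rps6ka1 (0.195), a kinase gene, and Zmynd8 (0.198), a chromatin reader gene. Closest to Fkbp5 (0.638) were Iah1 (0.284), Tshz3 (0.314) and Tsku (0.325).

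Which transcript of a gene was read could not always be settled from 3' reads. A single transcript was assigned 96.8% of the counts of Esr1 (Esr1-204), 97.5% of Pgr (Pgr-204), 98.6% of Greb1 (Greb1-201) and 89.0% of Fkbp5 (Fkbp5-201). Greb1-201 has its 3' end in common with Greb1-212, so that its share does not settle which start was used. For Ncoa1 the transcripts Ncoa1-201 and Ncoa1-207 held 72.3% and 18.5%, and for Ncoa2 the coding Ncoa2-203 held 53.9% and the retained-intron Ncoa2-207 35.0%. Counts of Nr3c1 were split between Nr3c1-204 (55.2%) and Nr3c1-203 (42.3%), whose shares ran from 0% to 100% and from 0% to 97.3% among single samples. Values are therefore given per gene. The share of 31-base words that a gene has in common with other genes was at most 3.01%, for Fkbp4, apart from Greb1 with 6.74%. The antisense gene Gm48140 ranked first among the genes that share words with Greb1.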

How the data were processed

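Whole-uterus 3' TagSeq libraries of 12 samples, 3 per estrous stage, were grouped by their stage label. Per the submitters' processing notes, FastQC, kallisto and DESeq2 were used; their roles, the transcript set and the use of strand are not given in the sources used here. Per the file headers, the authors deposited 1 table per sample with estimated counts, TPM, and transcript and effective lengths. The deposited estimated counts are expected counts and were not whole for 65.0% to 70.3% of values above 0. The deposited TPM values served only in an alternative.

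Transcript identifiers without version were matched to GENCODE M21 (GRCm38), which need not be the authors' annotation. Of 119414 transcripts 116640 (97.7%) matched, and the others, with 0.619% to 0.774% of counts, were left out. Counts were summed per gene and rounded. Totals per sample ran from 1652841 to 2200563, and floors cover counting error only. edgeR 4.0.16 (R 4.3.3) with filterByExpr by stage, TMM scaling (factors 0.908 to 1.05) and quasi-likelihood fits to all 12 samples gave an F test over 4 stages and 6 two-sided contrasts, adjusted by Benjamini-Hochberg over 12052 genes (biological coefficient of variation 20.6%). The 95% intervals come from the same fit and include the spread between samples. Centred log2 CPM used a prior count of 2.

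The 9 genes and all lists were chosen with earlier results of these data known. The genes named are the 9, the 4 tested genes per list with the smallest F test p, the 3 most similar genes to each of the 9 called in the F test, and the transcripts with at least 10% of a gene's counts. Of the genes this rule picks, 2 are not reported here. A list's other genes are named where few were called, which was decided after their values were seen. Alternatives were other scalings and filters, DESeq2 1.42.0, limma-voom (limma 3.58.1), counts scaled from TPM, protein-coding transcripts only, a block for the title number, only the 6 samples compared, each library left out and, added after seeing the data, no metestrus samples.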

Additional observations from a re-analysis of the deposited data

How the results depend on the processing

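In the comparison of diestrus with estrus, the 4 calls among the 9 genes became 3 to 4 under all alternatives. Counts scaled from TPM left Greb1 and Fkbp5 under the filter on low counts, so that neither was tested there. The 4 calls of the F test became 2 with counts scaled from TPM (Ncoa3 had an adjusted p of 0.168), and 3 to 5 with 1 library left out. Of the 2 calls in metestrus against estrus, 1 was left with protein-coding transcripts only, and 2 to 3 with 1 library left out. The 2 calls in proestrus against diestrus became 1 with library totals, 1 with the upper quartile, 1 with a mean of at least 50 counts (which Fkbp5 does not reach), 1 with protein-coding transcripts only and 0 with counts scaled from TPM, where both genes were untested, and ran from 0 to 2 with 1 library left out, with 0 without proestrus 1, proestrus 2 or diestrus 5. Metestrus against proestrus, with 0 calls, had 1 (Greb1) without a filter on low counts and 0 to 1 with 1 library left out. Greb1 was called in the F test in 6 of 22 alternatives, with adjusted p-values over all of them from 0.0033 to 0.343. The cause of the other changes was not tested. No direction turned among the results of the 9 genes that were called in at least 1 fit, or among the 109 called results of named list genes. The F tests among these have no direction, and results without a call in any fit were not compared. For the 109 results, 2328 of 2554 alternative values kept their call and 226 lost it.

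The title numbers are shared by some samples of different stages, and the 7 pairs of samples with the same number had correlations of their deviations from -0.0433 to 0.163, over 0.1 in 1 pair. Of 8 samples that share a number, 3 correlated best with one of the same number. The numbers were therefore not taken to pair the samples. With a replicate block over all 12 samples, which leaves 2 residual degrees of freedom, the calls among the 9 genes were 1 in estrus against proestrus (Pgr), 1 in metestrus against estrus (Fkbp4), 0 in proestrus against diestrus and 4 in diestrus against estrus. Over all genes the block gave 711 calls in estrus against proestrus in place of 2064, 132 in metestrus against estrus in place of 911, 189 in diestrus against metestrus in place of 27, 358 in proestrus against diestrus in place of 1028 and 89 in metestrus against proestrus in place of 519.

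Depth limits Fkbp5 most, since its libraries held 6 to 30 counts each. With 3 samples per stage, the widest 95% intervals of the 4 genes without a call reached log2 differences of 0.66 to 0.76. In the comparisons with those intervals, changes of Esr1, Nr3c1, Ncoa1 and Ncoa2 up to about that size were not excluded.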
